A study of Mus musculus with 12 samples.

Results

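The genes described here encode the protein subunits of the 5 oxidative phosphorylation complexes in mouse liver. The 13 protein genes of mitochondrial DNA were taken by name, and the nuclear members were taken by the start of their symbols (Ndufa, Ndufb, Ndufc, Ndufs, Ndufv, Sdha to Sdhd, Uqcr, Cox4 to Cox8 and Atp5). From that match, 16 pseudogene symbols and 12 symbols of assembly factors (8 Ndufaf and 4 Sdhaf) were removed. This left 104 genes of 50559 in the tables, 13 mitochondrial and 91 nuclear, with 43 nuclear members in complex I, 4 in complex II, 8 in complex III, 19 in complex IV and 17 in complex V. The complex was assigned by symbol alone, which places Ndufa4 and Ndufa4l2 in complex I and Cox7a2l in complex IV, whatever the place of their proteins.

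Liver RNA of C57BL/6N mice was sequenced for 4 groups, with 3 biological replicates in each. The NCD group ate normal chow, and the HFD group ate a diet with 60% of its energy from fat, in both cases for 12 weeks. The HFD+C1 and HFD+C2 groups ate the high-fat diet and were injected intraperitoneally with compound C1 or C2 at 5 mg/kg per day over the same 12 weeks. The labels name no vehicle, age or sex, and the compounds are known only by code, so no structure is given; the series title names them as CYP4A inhibitors.

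Oxidative phosphorylation couples the oxidation of nutrients to ATP synthesis in the inner mitochondrial membrane. Complexes I and II pass electrons to ubiquinone, complex III passes them on to cytochrome c, complex IV passes them to oxygen, and complex V, the ATP synthase, uses the proton gradient built by complexes I, III and IV. Mitochondrial DNA encodes core subunits of complexes I, III, IV and V, transcribed as long precursors that are cut into single messages, while nuclear genes encode the remaining subunits and the whole of complex II. Hepatocytes are rich in mitochondria and use them to oxidise fatty acids.

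The mitochondrial genes lie close together, some overlap, and several have near-identical copies in nuclear DNA, so part of their sequence cannot be assigned to one gene by a short read. In the GENCODE M21 annotation of GRCm38, ATP8 occupies chrM:7766-7969 on the plus strand and shares its last 43 bases with ATP6. ATP8 is shown because its change with the diet was the largest in size among the members, and the capitals mark the bases shared with ATP6.
ATP8: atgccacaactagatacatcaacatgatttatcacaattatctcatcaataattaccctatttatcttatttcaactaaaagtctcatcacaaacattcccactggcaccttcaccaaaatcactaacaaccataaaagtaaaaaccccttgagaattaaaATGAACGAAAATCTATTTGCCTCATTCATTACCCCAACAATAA
ND4L and ND4 share 7 bases, and ND5 and ND6 share 14 bases on opposite strands, ND6 being the only one of the 13 on the minus strand. Of the 50-base windows of each gene, 100% were found unchanged in a nuclear transcript for COX2, 99.9% for COX3, 99.5% for ATP6, 98.8% for ND4L and 98.0% for ND3. Their closest copies (Gm28661, Gm28437, Gm10925, Gm10222 and Gm28438) lie on chromosome 1. The share was 62.2% for ND4, 51.1% for COX1, 8.19% for ND2 and 7.61% for ND5, and no such window was found for ND1, ATP8, ND6 or CYTB. ND3 is shown beside its copy because it alone among the members was called lower on the high-fat diet. Over 345 aligned bases the copy Gm28438 differs at 1 position, T3C, counted from 1 at the first base of ND3 and marked by the capital in both sequences.
ND3: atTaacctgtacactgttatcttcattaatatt
Gm28438: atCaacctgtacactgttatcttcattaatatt
Reads that mapped to several places stand in a row of their own in the deposited tables, outside the genes, and made up 5.17% to 7.50% of a library.

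Reads counted in genes ranged from 4281210 to 32124248 per library, and the shallowest library was NCD replicate 2. NCD replicate 1 and HFD+C2 replicate 1 stood apart from the rest, with 58.2% and 47.1% of their reads outside genes against 27.3% to 40.7% in the other libraries. Hepatocyte markers (9 of 10 listed genes found) summed to 93151 CPM or more in every high-fat-fed library, to 78902 and 83552 CPM in NCD replicates 2 and 3 and to 30838 CPM in NCD replicate 1, where CPM is the count scaled to the usual library total, adjusted by the trimmed mean of M values (TMM) over all 12 libraries. Striated muscle markers (11 genes) summed to 180 CPM in NCD replicate 3, 6.81 CPM in NCD replicate 1 and at most 0.765 CPM in the other libraries. Each member's level is that of the whole tissue, in which fewer cells of a type and less RNA per cell cannot be told apart.

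The first comparison asked how the subunit genes differed between the high-fat diet and chow. Messages from mitochondrial DNA took a larger share of the reads on the high-fat diet and those from nuclear genes did not. The 13 mitochondrial genes held 1.06%, 1.66% and 2.01% of the gene reads in NCD replicates 1 to 3, and 8.71%, 7.72% and 6.98% in HFD. The groups were far apart, with the lowest HFD library above the highest NCD library. The 91 nuclear genes together held 3.39%, 2.27% and 2.60% in NCD and 2.32%, 1.94% and 2.34% in HFD, and these groups overlapped. The log2 ratio of the 2 sums was -0.831 ± 0.732 in NCD and 1.83 ± 0.222 in HFD (SD, n = 3), a difference of 2.66. When the median over members of the log2 CPM replaced the sums, the difference was 0.81. The mitochondrial median fell on ND6 in every HFD library and in NCD replicates 2 and 3, and on ND4 in NCD replicate 1. This difference therefore follows mainly the level of ND6 and is not the typical change of a member. COX1 and CYTB held 67.1% to 69.3% of the mitochondrial reads in HFD, 70.6% and 61.0% in NCD replicates 2 and 3, and 33.7% in NCD replicate 1, where ND5 was level with COX1 and ND1 with CYTB.

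**Figure D1:**
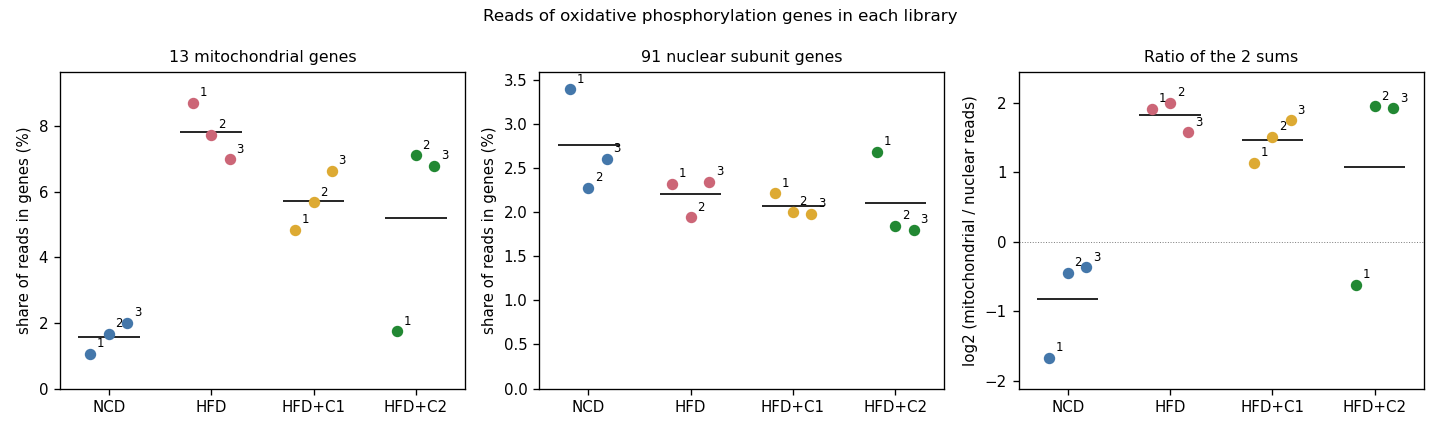
Share of the reads in genes held by the 13 mitochondrial genes (left, %) and by the 91 nuclear subunit genes (middle, %), and the log2 ratio of both sums (right), for each of the 12 libraries. Points are libraries with their replicate number and lines are group means; the mitochondrial share is 1.06% to 2.01% in NCD and 6.98% to 8.71% in HFD, and HFD+C2 replicate 1, at 1.74%, lies among the NCD libraries.

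Of 13864 genes, the quasi-likelihood test of edgeR (Benjamini-Hochberg adjusted p, threshold 0.05) called 6.03%, with 2.59% higher and 3.44% lower on the high-fat diet. Among the 13 mitochondrial genes it called 8, of which 7 were higher and 1 was lower, and it called none of the 83 nuclear members tested. The median log2 change was 2.14 over the 13 mitochondrial genes, 0.0 over the 83 nuclear genes and -0.02 over all genes tested. The groups did not overlap for 11 mitochondrial genes, 10 higher in HFD (background 19.0%) and 1 lower (background 18.1%). Overlap is counted here on CPM scaled within the 6 libraries of a comparison, while levels are printed on the scaling over all 12, and for ND6 and Ndufb1 both scalings differ in this comparison.

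In complex I, the subunit genes ND1, ND2, ND4 and ND5, which encode core proteins of its membrane arm, rose. ND4 was at 844, 650 and 1257 CPM in NCD replicates 1 to 3 and at 5969, 4796 and 4729 CPM in HFD. ND2 was at 1054, 995 and 1865 CPM in NCD and at 6967, 5888 and 5189 CPM in HFD. In both genes every HFD library was above every NCD library, by log2 changes of 2.52 (standard error 0.29, edgeR adjusted p 0.00611) for ND4 and 2.23 (0.30, edgeR adjusted p 0.0104) for ND2. ND1 went from 1071, 1593 and 2620 CPM to 8115, 8328 and 6601 CPM (log2 change 2.14, edgeR adjusted p 0.0198). ND5 went from 1988, 753 and 1021 CPM to 6946, 5246 and 4266 CPM (log2 change 2.15, edgeR adjusted p 0.0261). For both, the lowest HFD library was again above the highest NCD library.

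The other 3 mitochondrial genes of complex I differed from these. ND6, the gene on the minus strand, was at 904, 329 and 555 CPM in NCD and at 987, 893 and 1062 CPM in HFD, which overlap on this scaling and do not on that of the 6 libraries (log2 change 0.74, edgeR adjusted p 0.177). ND4L was at 3.62, 2.75 and 3.13 CPM in NCD and at 4.99, 4.04 and 2.20 CPM in HFD, also with overlap (log2 change 0.25, edgeR adjusted p 0.659), and without HFD replicate 1 the change was 0.00. ND3 fell: it was at 30.1, 8.46 and 13.1 CPM in NCD and at 5.52, 4.01 and 4.97 CPM in HFD. Every HFD library lay below every NCD library (log2 change -1.83, standard error 0.42, edgeR adjusted p 0.0452), and without NCD replicate 1 the change was -1.21. With 98.0% of its windows also in the copy shown above, its fall is uncertain as a measure of the whole message.

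In complex III, CYTB, which encodes cytochrome b and is the sole subunit of that complex made in mitochondria, was at 1055, 2512 and 4004 CPM in NCD and at 27554, 19627 and 18989 CPM in HFD. The groups were far apart, and the log2 change was 3.15 (standard error 0.47, edgeR adjusted p 0.0165).

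In complex IV, COX1, which encodes the catalytic subunit, was at 1987, 8102 and 7721 CPM in NCD and at 36277, 31996 and 30697 CPM in HFD (log2 change 2.49, standard error 0.49, edgeR adjusted p 0.0346). NCD replicate 1 was the lowest library by far, and without it the change was 2.06. COX2, which encodes the subunit that takes electrons from cytochrome c, was at 44.0, 33.6 and 57.4 CPM in NCD and at 93.4, 73.0 and 65.3 CPM in HFD, without overlap but short of a call (log2 change 0.79, edgeR adjusted p 0.0758). COX3 was at 20.4, 21.6 and 27.7 CPM in NCD and at 31.9, 28.7 and 23.9 CPM in HFD, with overlap (log2 change 0.29, edgeR adjusted p 0.350).

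In complex V, ATP8, a small subunit of the membrane part of the synthase, was at 0.431, 0.000 and 0.659 CPM in NCD and at 10.3, 7.95 and 4.20 CPM in HFD. All HFD libraries were above all NCD libraries, one of which held no read of the gene (log2 change 3.99, standard error 0.57, edgeR adjusted p 0.0133; the size of a fitted change against counts this low depends on the prior count). ATP6, which encodes the proton channel subunit, was at 18.5, 41.6 and 60.1 CPM in NCD and at 126, 97.2 and 97.1 CPM in HFD, without overlap (log2 change 1.43, edgeR adjusted p 0.0585). Gm10925, the listed copy of ATP6, held more reads than ATP6 itself, at 95, 211 and 342 CPM in NCD and 883, 664 and 599 CPM in HFD. When its counts were added to those of ATP6, an alternative chosen after the data were seen, the ATP6 change was 1.70 with an edgeR adjusted p of 0.0486. The same step for ND4L with its listed copy Gm10222 gave 0.18 with an edgeR adjusted p of 0.865.

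Per kilobase of gene, the mitochondrial genes spanned over 3 orders of magnitude within one library group. In HFD, COX1 was highest at 21353 ± 1890 CPM per kb and CYTB followed at 19280 ± 4171 (SD, n = 3), a difference within their spread. ND1 (8026 ± 984), ND2 (5794 ± 863), ND4 (3748 ± 506), ND5 (3008 ± 743) and ND6 (1890 ± 163) came next in CPM per kb, with ND4 and ND5 overlapping. The 5 genes found almost whole in a nuclear copy were all far lower, from 12.6 ± 4.78 CPM per kb for ND4L to 157 ± 24.7 for ATP6. ATP8, at 36.7 ± 15.1 CPM per kb, was also low. No copy of it was found in the annotated transcripts, the only sequences searched. Its neighbours COX2 and ATP6 have copies on chromosome 1 with 100% identity over the aligned bases. Whether nuclear DNA outside annotated transcripts holds a copy of ATP8 was not tested.

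**Figure D2:**
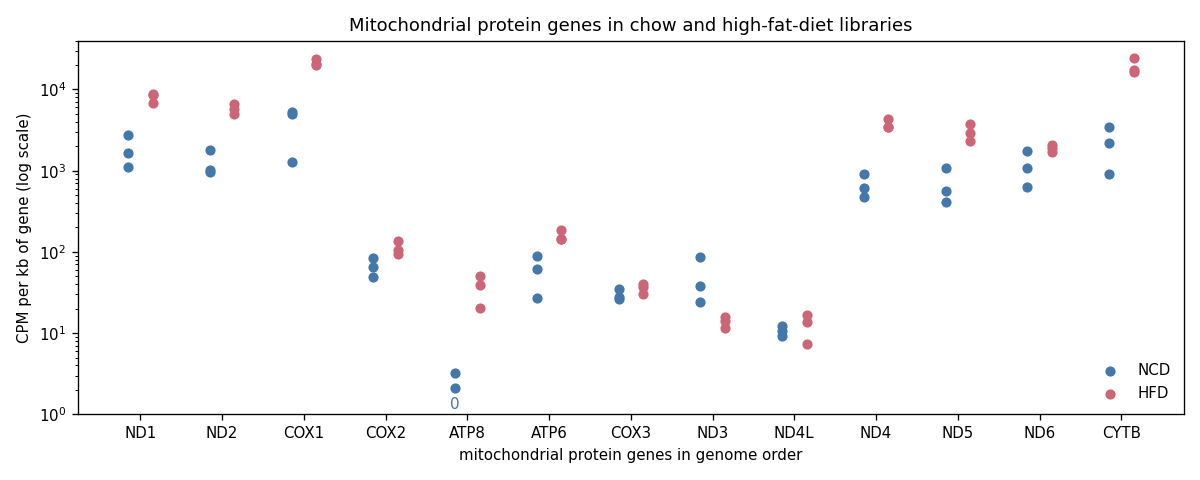
CPM per kb of gene (log scale) of the 13 mitochondrial protein genes in genome order, in the 3 NCD and 3 HFD libraries; each point is 1 library, and 0 marks the NCD library without an ATP8 read. All HFD points lie above all NCD points for 9 genes, the groups overlap for ND6, ND4L and COX3, and the HFD points lie below for ND3.

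The 8 mitochondrial calls depended on having 3 HFD libraries. Without HFD replicate 1 or replicate 3 edgeR called none of the 13 genes, and without HFD replicate 2 it called ND2 and ND4, while the counts over all genes dropped to 23, 25 and 131. In these 3 fits the log2 change of ND4 was 2.41 to 2.58 and that of CYTB was 2.96 to 3.25. Leaving out NCD replicate 1, 2 or 3 gave 11, 8 or 6 calls, while 1838, 1276 or 487 genes were called in all, so the count of members moved with that of the whole table.

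The 2 ribosomal RNAs of the mitochondrial ribosome, mt-Rnr1 and mt-Rnr2, come from the same genome and were not called. They held 1.54%, 0.693% and 1.03% of the gene reads in NCD and 0.720%, 0.647% and 1.05% in HFD, and the groups overlapped. Their log2 changes were -0.26 for mt-Rnr1 (edgeR adjusted p 0.637) and -0.12 for mt-Rnr2 (edgeR adjusted p 0.802). The ratio of the 13 messages to the 2 rRNAs was 0.691, 2.40 and 1.95 in NCD and 12.1, 11.9 and 6.67 in HFD, so that the lowest HFD ratio was above the highest NCD ratio.

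Measures of the libraries moved with the same contrast. Reads outside annotated features were 23.2%, 8.58% and 10.4% of all reads in NCD and 6.27%, 4.92% and 6.84% in HFD, without overlap. Reads not in a gene were 35.7% to 58.2% in NCD and 31.9% to 32.9% in HFD, and multimapping reads, which bear on genes with nuclear copies, were 5.54% to 6.28% and 7.28% to 7.50%. RNAs retained in the nucleus (5 listed, including Malat1 and Neat1) summed to 1056 to 1258 CPM in NCD and to 393 to 547 CPM in HFD. All 3 of them that were tested were called lower in HFD. Among cell type markers, summed hepatocyte markers were 30838 to 83552 CPM in NCD and 98360 to 117730 CPM in HFD. Cholangiocyte markers were 23.7 to 32.2 and 33.1 to 39.8 CPM, and lymphocyte markers 5.07 to 7.50 and 2.89 to 4.82 CPM. The sums of the other listed cell types overlapped. Because the values without overlap separate the same 6 libraries as the diet, their part in the mitochondrial difference and the diet's cannot be told apart. HFD+C2 replicate 1, a high-fat-fed library, had 10.9% of its reads outside features, a mitochondrial share of 1.74% and a message to rRNA ratio of 0.590. The 18S ribosomal RNA entry Rn18s-rs5 was at 114656 CPM in that library and at 10833 and 9377 CPM in HFD+C2 replicates 2 and 3. In NCD (11149 to 19983 CPM) and HFD (9999 to 20063 CPM) its levels overlapped. How far the rRNA kept in a library sets the message to rRNA ratio was not tested.

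**Figure D3:**
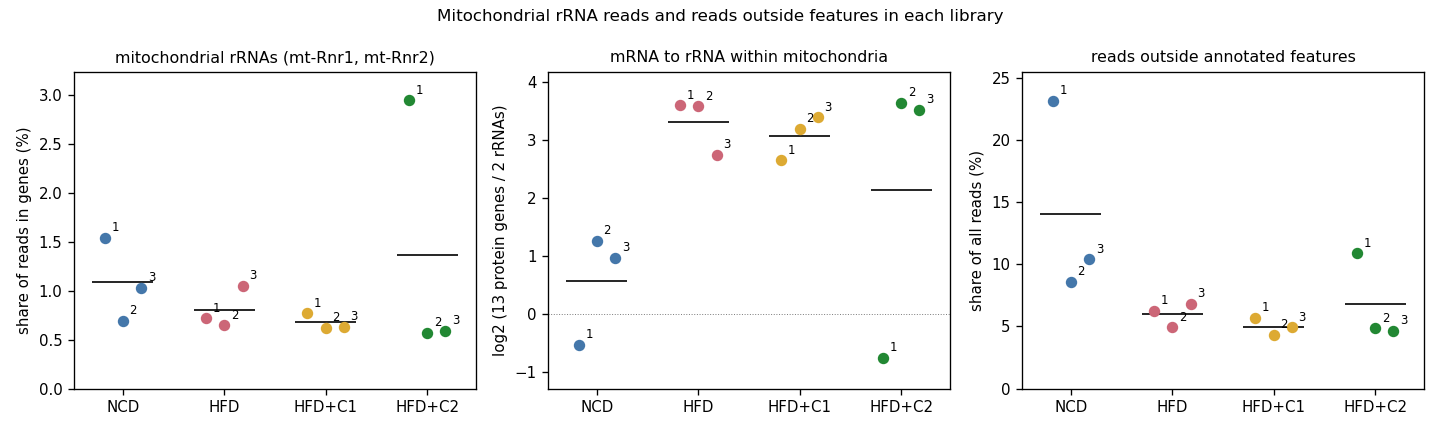
Share of gene reads held by mt-Rnr1 and mt-Rnr2 (left, %), log2 ratio of the 13 mitochondrial messages to both rRNAs (middle), and share of all reads outside annotated features (right, %), for the 12 libraries with group means as lines. HFD+C2 replicate 1 has the highest rRNA share, 2.95%, and a ratio of messages to rRNAs below that of the NCD group mean.

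Nuclear members varied in both directions with the diet, and the count called was 0 of 83. The unadjusted p was under 0.05 for 10 higher and 12 lower members, or about the shares seen among all genes (28.9% in all, 13% higher and 15.9% lower), and DESeq2 called 11, 7 higher and 4 lower (background 16.6%). With 1 library left out the unadjusted count ranged from 9 without HFD replicate 1 (background 17.0%) to 29 without NCD replicate 2 (background 33.7%). A fit with all 12 libraries called 9 (background 17.4%), a fit without a filter on low counts called 14 of 90 (background 12.7%), and leaving out NCD replicate 1 gave 10 (background 13.7%). The shares of nuclear members called lie near or below these. The groups did not overlap for 12 higher and 10 lower of the 83 nuclear members, below the background shares of 19.0% higher and 18.1% lower. The other 8 nuclear members were below the mean of 10 counts needed for the test.

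Among the 42 tested nuclear genes of complex I, the median log2 change was 0.01. Ndufb4c had the largest increase among those with a mean of 50 counts, from 5.26, 8.88 and 12.6 CPM in NCD to 22.7, 16.7 and 22.5 CPM in HFD, with no overlap (log2 change 1.21, edgeR adjusted p 0.0564). Its annotated transcript is identical over all 390 bases to that of Ndufb4, which encodes an accessory subunit of the membrane arm, so the counts of both are uncertain. Ndufb1, another accessory subunit, had the largest decrease, from 101, 22.2 and 33.2 CPM to 18.1, 16.8 and 22.1 CPM, and its groups overlap on the scaling of the 6 libraries (log2 change -1.44, edgeR adjusted p 0.102). NCD replicate 1 was the high library, and without it the change was -0.58. Ndufa7 and Ndufa10, accessory subunits that DESeq2 called, had log2 changes of 0.87 and 0.76 (edgeR adjusted p 0.0783 and 0.0851).

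In complex II, succinate dehydrogenase, all 4 subunit genes had log2 changes below 0. The range was -0.55 to -0.06 and the lowest was Sdhd, a membrane anchor. Sdhd was at 336, 206 and 260 CPM in NCD and at 190, 160 and 190 CPM in HFD, without overlap (log2 change -0.55, edgeR adjusted p 0.137). In complex III, Uqcrc2, a core subunit, was at 41.4, 135 and 107 CPM in NCD and at 132, 149 and 126 CPM in HFD, with overlap (log2 change 0.54, edgeR adjusted p 0.355, and 0.17 without NCD replicate 1). Uqcrh, the hinge protein, was at 705, 354 and 426 CPM in NCD and at 343, 281 and 327 CPM in HFD, without overlap (log2 change -0.62, edgeR adjusted p 0.165, and -0.30 without NCD replicate 1).

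In complex IV, Cox8a and Cox5b, 2 small structural subunits, were higher in every HFD library. Cox8a was at 121, 155 and 181 CPM in NCD and at 318, 210 and 264 CPM in HFD (log2 change 0.81, edgeR adjusted p 0.0676), and Cox5b had a log2 change of 0.79 (edgeR adjusted p 0.0638). Cox5a was at 507, 234 and 295 CPM in NCD and at 220, 188 and 207 CPM in HFD, and all its HFD libraries were lower (log2 change -0.73, edgeR adjusted p 0.135, and -0.36 without NCD replicate 1).

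Complex V held the nuclear member with the highest log2 change of the 83 tested. Atp5g2, 1 of the genes for the rotating c ring, was at 3.10, 12.0 and 17.6 CPM in NCD and at 41.6, 35.2 and 28.5 CPM in HFD. Every HFD library was higher, the log2 change was 1.69 with an edgeR adjusted p of 0.0744, and without NCD replicate 1 it was 1.19 with an edgeR adjusted p of 0.00213. Atp5h, a subunit of the peripheral stalk, was at 2737, 1102 and 1312 CPM in NCD and at 751, 569 and 882 CPM in HFD. Every HFD library was lower (log2 change -1.20, edgeR adjusted p 0.0747), and without NCD replicate 1 the change was -0.71 with an edgeR adjusted p of 0.0231. The inhibitor of the synthase, listed under its older symbol Atpif1 and no member by symbol, was at 172, 81.6 and 114 CPM in NCD and at 107, 84.2 and 112 CPM in HFD, which overlap (log2 change -0.25, edgeR adjusted p 0.557).

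**Figure D4:**
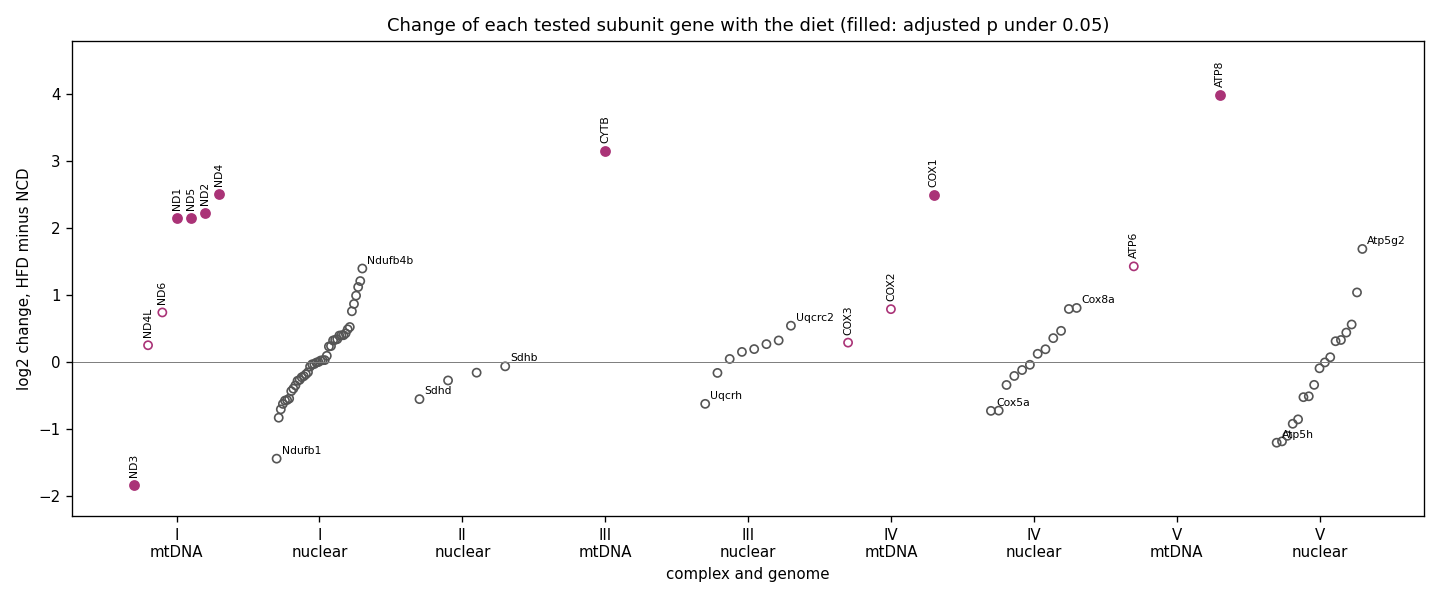
Log2 change (HFD minus NCD) of every tested subunit gene, by complex and by genome; each symbol is 1 gene, filled where the edgeR adjusted p was under 0.05, and genes are spread sideways in order of their change. The 13 mitochondrial genes run from -1.83 for ND3 to 3.99 for ATP8 with 8 filled, and the 83 nuclear genes run from -1.44 to 1.69 with none filled.

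Atp5g2 and Atp5h have different short motifs in their RefSeq promoters (GRCm38.p6, 250 bases before to 50 bases after the start), shown because these were the nuclear genes of complex V with the highest and the lowest log2 change with the diet. The Atp5g2 promoter, chr15:102670998-102671297 on the minus strand, holds the NRF1 motif CGCATGCGC on both strands, overlapping, and the capitals mark both matches.
Atp5g2: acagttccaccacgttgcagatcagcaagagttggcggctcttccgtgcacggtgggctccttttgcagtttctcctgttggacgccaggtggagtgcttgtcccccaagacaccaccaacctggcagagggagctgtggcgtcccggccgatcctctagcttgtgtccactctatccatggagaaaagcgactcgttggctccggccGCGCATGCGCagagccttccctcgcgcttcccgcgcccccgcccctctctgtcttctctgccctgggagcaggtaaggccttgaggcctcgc
The Atp5h promoter, chr11:115419870-115420169 on the minus strand, holds the GABPA motif CCGGAAG on the opposite strand, in capitals.
Atp5h: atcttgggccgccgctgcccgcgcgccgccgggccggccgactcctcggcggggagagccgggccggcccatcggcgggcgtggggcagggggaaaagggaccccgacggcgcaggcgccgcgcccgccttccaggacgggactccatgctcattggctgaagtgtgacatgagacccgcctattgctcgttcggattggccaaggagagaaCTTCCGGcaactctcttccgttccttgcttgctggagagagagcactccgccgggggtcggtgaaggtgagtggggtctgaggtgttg
Promoters were matched by symbol for 71 of the 91 nuclear members, and both strands were searched. The NRF1 motif was in 11.3% of the members' promoters, against 1.95% of all 27025 genes with a promoter and 3.93% of those tested in the diet comparison. The GABPA motif was in 23.9%, against 9.93% of all and 19.3% of tested genes. The YY1 motif AAGATGGCG was in 9.86%, against 1.64% and 3.51%, and the ERRA motif TCAAGGTCA was in 2.82%, against 0.466% and 0.338%. These shares describe the letters in the window only.

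Some nuclear subunits have alternative forms used in different tissues. Of the muscle forms, Cox6a2 had 35 counts in all 12 libraries, 31 of them in NCD replicate 3, and Cox8b had 53 counts, 29 of them in NCD replicate 3, the library with the highest striated muscle markers, whose part in these counts was not tested. Cox7a1 had 9 counts in all. Cox4i2, a form found mainly in lung, had 44 counts and the testis forms Cox6b2, Cox7b2 and Cox8c had 37, 7 and 0. Among the tested forms, Cox4i1 was at 1355, 763 and 1020 CPM in NCD and 1042, 667 and 969 CPM in HFD, and Cox6a1 was at 284, 223 and 325 CPM in NCD and 468, 288 and 380 CPM in HFD, with overlap in both. Their log2 changes were -0.21 (edgeR adjusted p 0.635) and 0.47 (0.222). Cox6b1 (0.13), Cox7a2 (-0.12), Cox7a2l (-0.72), Ndufa4 (0.09) and Ndufa4l2 (0.99) also had log2 changes with edgeR adjusted p of 0.148 or more, and without NCD replicate 1 that of Cox7a2l was -0.33.

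Other genes of the pathway were read from fixed lists. In the 2 largest lists the counts called were near the shares of all genes given above (2.59% higher and 3.44% lower) and are no result about the lists. Of 49 tested assembly factors, 1 was called higher and none lower, with a median log2 change of -0.03. That gene was Coa8, a factor for complex IV, at 15.9 ± 4.57 CPM in NCD and 32.7 ± 5.38 CPM in HFD (SD, n = 3, scaled within the comparison; log2 change 1.05, edgeR adjusted p 0.0492). Of 28 tested genes for the upkeep and expression of mitochondrial DNA, 1 was called lower and none higher. Lrpprc, which binds and stabilises mitochondrial messages, fell: its level was 164.6 ± 29.1 CPM in NCD and 87.6 ± 8.01 CPM in HFD (SD, n = 3, log2 change -0.91, edgeR adjusted p 0.0386). Tfam, which packages mitochondrial DNA and starts its transcription, had a log2 change of -0.53 (edgeR adjusted p 0.106). Of 13 regulators of mitochondrial biogenesis, Ppara, a receptor for fatty acids, rose from 46.7 ± 15.9 to 101.9 ± 8.73 CPM (SD, n = 3; log2 change 1.13, edgeR adjusted p 0.0419), and no other was called. None of 13 electron carrier genes or 4 tested inner membrane carriers was called by edgeR, with 2 and 2 at an unadjusted p under 0.05; DESeq2 counts were not made for these lists.

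The second comparison asked how the subunit genes differed with compound C1. All 13 mitochondrial genes had lower fitted levels in HFD+C1 than in HFD, and none passed the test with all 6 libraries. Across all genes edgeR called 0.0524% of 13358, all lower, and no member was among them. The 13 mitochondrial genes held 4.83%, 5.67% and 6.64% of the gene reads in HFD+C1, below the 6.98% to 8.71% of HFD without overlap. Their log2 changes ran from -1.14 to -0.25 with a median of -0.55, against a median of 0.01 in the whole table. An unadjusted p under 0.05 was reached by 12 of them, all lower (background 7.75% in either direction and 4.48% lower), the groups did not overlap for 8, all lower (background 6.05%), and DESeq2 called 4 (background 0.576%). edgeR called ATP6 and COX2 without HFD replicate 2, where it called 0.767% of all genes. The unadjusted count was 5 without HFD replicate 1 (background 2.41% lower), 8 without HFD+C1 replicate 1 (background 3.86%) and 10 to 12 without any other single library (backgrounds 3.44% to 7.14%). In a fit with all 12 libraries it was 2, both lower, where 188 of 13358 genes were lower at that threshold and no gene was called. ND1 is counted among the 8 and overlaps on the scaling over 12 libraries.

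The lowest edgeR adjusted p was 0.0952, for ATP6, the proton channel subunit, at 54.5, 60.8 and 70.7 CPM in HFD+C1 against 126, 97.2 and 97.1 CPM in HFD (log2 change -0.79, standard error 0.14). COX2 was at 36.2, 39.5 and 55.6 CPM against 93.4, 73.0 and 65.3 CPM in HFD (log2 change -0.82, edgeR adjusted p 0.138). In both genes every HFD+C1 library was below every HFD library. Of the 50-base windows, 99.5% for ATP6 and 100% for COX2 were also in a nuclear transcript. The changes of both are therefore uncertain as measures of the whole messages. With the counts of the listed copies added to ATP6 and ND4L, edgeR called none of the 13, and the lowest adjusted p was 0.104. The abundant CYTB was at 11259, 15208 and 16275 CPM, also below all HFD libraries (log2 change -0.63, edgeR adjusted p 0.334), and COX1 was at 20072, 25180 and 29661 CPM (log2 change -0.40, edgeR adjusted p 0.512). ND1, ND2, ND4, ND5 and ND6 had log2 changes of -0.31, -0.51, -0.40, -0.63 and -0.34. ND3 had the smallest change, -0.25, ATP8 the largest, -1.14, while COX3 was at -0.55 and ND4L at -0.86. The edgeR adjusted p of these 9 genes ranged from 0.293 to 0.868. With 1 library left out, the log2 change of ND3 ranged from -0.39 to -0.07 and that of ND6 from -0.45 to -0.18.

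The nuclear members leaned the same way by less. Of 83 tested, 66 had a log2 change below 0, while 51.2% of all genes tested were above 0, and the median was -0.18. edgeR and DESeq2 called none, and 18 reached an unadjusted p under 0.05, all lower (background 4.48% lower and 3.26% higher). That count rested on single libraries: 2 were lower without HFD replicate 1 (background 2.41%) and 43 without HFD replicate 2 (background 7.14%). It was 9 without HFD replicate 3 (background 3.44%), and 10, 12 and 6 without HFD+C1 replicates 1, 2 and 3 (backgrounds 3.86%, 3.99% and 4.02%). In the fit with all 12 libraries it was 1, where 188 of 13358 genes were lower at that threshold. The groups did not overlap for 4 higher (background 6.36%) and 7 lower nuclear members. The ratio of the mitochondrial to the nuclear sum was 2.19, 2.84 and 3.36 with C1 against 3.75, 3.99 and 2.98 on the diet alone, with overlap, and its log2 differed by -0.37. Without HFD+C1 replicate 1 that log2 difference was -0.20. In complex V, Atp5k, a small subunit of the membrane part, was at 136, 182 and 171 CPM against 255, 204 and 226 CPM in HFD, without overlap (log2 change -0.49, edgeR adjusted p 0.336). Cox7a2, a liver form of a complex IV subunit, was at 10.4, 11.0 and 12.0 CPM against 19.4, 14.6 and 14.1 CPM, also without overlap (log2 change -0.53, edgeR adjusted p 0.357).

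The other nuclear genes picked for C1 had smaller or less certain differences. Cox6c2, a form of Cox6c that shares 96.8% of 126 aligned bases with it, had a log2 change of -0.75 (edgeR adjusted p 0.474). Uqcr11, a small subunit of complex III, and Ndufb7, an accessory subunit of complex I, were at -0.43 (edgeR adjusted p 0.466) and -0.40 (edgeR adjusted p 0.578), and without HFD replicate 2 both were called at -0.59, as was Ndufa2, another accessory subunit of complex I, at -0.57 (edgeR adjusted p 0.0490). The highest values were 0.22 for Uqcrc2, 0.17 for Atp5a1, the alpha subunit of the synthase head, 0.17 for Cox7a2l, 0.13 for Sdha, the flavoprotein of complex II, and 0.10 for Ndufa9, with edgeR adjusted p of 0.711 or more. Sdhc, a membrane anchor of complex II, was the lowest of that complex at -0.18. Other measures also separated these 6 libraries. Macrophage markers summed to 289 to 374 CPM in HFD+C1 and 175 to 238 CPM in HFD, with all 9 above 0 in log2 change (median 0.74). Nuclear-retained RNAs summed to 259 to 329 CPM with C1 and 393 to 547 CPM without it. Reads not in a gene were 27.3% to 28.7% in HFD+C1 and 31.9% to 32.9% in HFD, and multimapping reads 6.73% to 7.08% and 7.28% to 7.50%. As none of these overlapped between the groups, their part and that of C1 cannot be told apart. Erythroid markers summed to 188 to 302 CPM with C1 and 259 to 389 CPM without it, with overlap. All 5 of them were below 0 in log2 change (median -0.60), 3 with an unadjusted p under 0.05 and none called by edgeR, and their part was not tested.

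The third comparison asked the same of compound C2, and its answer turned on 1 library. HFD+C2 replicate 1 held 1.74% of its gene reads in the 13 mitochondrial genes, while replicates 2 and 3 held 7.10% and 6.78%, within or near the HFD range. Across all genes edgeR called 0.0222% of 13503, and no member was called. The fitted log2 changes of the 13 genes were all below 0, from -0.86 to -0.35 with a median of -0.64. Unadjusted p were under 0.05 for ATP6 and COX2, both lower (background 6.89% in either direction and 3.70% lower), and DESeq2 called none of the 13. Leaving out HFD replicate 1 or 2 brought that count to 0 (backgrounds 1.21% and 4.68% lower), and leaving out HFD+C2 replicate 2 or 3 brought it to 6 or 3 (backgrounds 3.82% and 4.38% lower). With the counts of the listed nuclear copies added to ATP6 and ND4L the count was 1, where 500 of 13501 genes were lower at that threshold. The groups did not overlap for 4 of the 13, all lower (background 6.94%).

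Without HFD+C2 replicate 1 the median of the 13 was -0.27, and ND1 turned to 0.10. COX1 was then at -0.16, CYTB at -0.36, ND2 at -0.10 and ND5 at -0.03, while ATP6 and COX2 remained lowest at -0.48 and -0.53 with unadjusted p of 0.00915 and 0.00887 (edgeR adjusted p 0.328 and 0.326). ATP6 was at 27.0, 80.5 and 73.1 CPM in HFD+C2 replicates 1 to 3 and COX2 at 20.6, 58.8 and 48.8 CPM, all below every HFD library. With 99.5% of the ATP6 windows and 100% of the COX2 windows also in a nuclear transcript, these changes are uncertain as measures of the whole messages. CYTB was at 3926, 19346 and 15234 CPM and ND2 at 725, 5915 and 5333 CPM, with replicate 1 far below the other two. ND4 was at 523, 4511 and 3921 CPM and COX1 at 11135, 30217 and 29128 CPM, with the same low library. The log2 ratio of mitochondrial to nuclear reads differed from HFD by -0.75 with this library and by 0.10 without it.

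**Figure D5:**
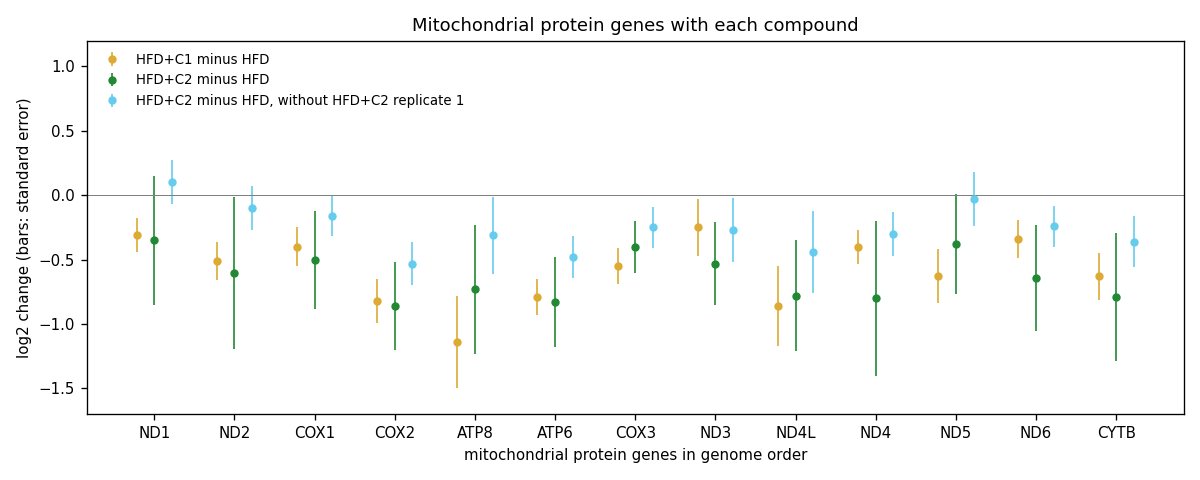
Log2 change of the 13 mitochondrial protein genes, with standard error bars from edgeR, for HFD+C1 minus HFD, HFD+C2 minus HFD, and HFD+C2 minus HFD without HFD+C2 replicate 1. The C1 points lie between -1.14 and -0.25 and the C2 points between -0.86 and -0.35, and without the 1 library the C2 points move up to between -0.53 and 0.10; the 3 HFD libraries are shared by all these differences.

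The nuclear members were also read with and without that library. With it, 43 of 83 were above 0 (background 52.2%) and the median was 0.02. Without it, 78 of 83 were below 0, and the median was -0.33, with 0.0 for the 13537 genes of that fit. Of these members 33 reached an unadjusted p under 0.05, all lower (background 6.28%). The remaining HFD+C2 replicates 2 and 3 also lay below every HFD library in reads not in a gene (27.4% and 27.9%), reads outside features (4.86% and 4.66%) and multimapping reads (7.19% and 7.08%), so that the part of these measures and that of C2 cannot be told apart. edgeR called none in either fit, and DESeq2 called none. With all libraries 7 had an unadjusted p under 0.05, all lower (3.19% of the table did so as higher), and the groups did not overlap for 1 higher (background 6.69%) and 7 lower members. The count of 7 became 0 on leaving out HFD replicate 1 or 3 (backgrounds 1.21% and 1.48% lower) and 11 on leaving out HFD replicate 2 (background 4.68%), and the fit that lacked HFD+C2 replicate 3 had 4 lower and 1 higher. Macrophage markers summed to 236 to 497 CPM in HFD+C2, highest in replicate 1, and 175 to 238 CPM in HFD. All 9 of them had a log2 change above 0 (median 0.77), 7 with an unadjusted p under 0.05 and none called by edgeR, and their part was not tested.

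HFD+C2 replicate 1 stood out in single nuclear genes in both directions. Cox7b, a small subunit of complex IV, was at 975, 310 and 241 CPM in HFD+C2 and at 355, 278 and 363 CPM in HFD (log2 change 0.60, edgeR adjusted p 0.730). Atp5l, a subunit of the membrane part of the synthase, was at 923, 266 and 238 CPM against 347, 234 and 391 CPM (log2 change 0.54, edgeR adjusted p 0.767), and Atp5d, a subunit of its central stalk, was at 74.8, 201 and 187 CPM against 290, 197 and 247 CPM (log2 change -0.67, edgeR adjusted p 0.696). In each of the 3 genes replicate 1 lay far from the others of its group. Ndufa8, an accessory subunit of complex I, was at 46.7, 98.1 and 101 CPM against 163, 117 and 156 CPM, all lower (log2 change -0.83, edgeR adjusted p 0.695). Ndufa6 (0.38), Uqcrh (0.39), Uqcrc1 (-0.03), Sdha (0.07), Sdhb (-0.35) and Cox4i1 (-0.57) were the remaining extremes of their complexes in log2 change, with edgeR adjusted p of 0.695 or more.

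The last comparison set the compounds against each other at the same dose and duration, the 1 pair in the series. No gene of 13229 was called by edgeR (background 0%), and 4.60% had an unadjusted p under 0.05, 2.80% of the table as higher and 1.79% as lower. Among the 13 mitochondrial genes none had an unadjusted p under 0.05, DESeq2 called none, and 4 were above 0 and 9 below (background 51.7% above 0). Their log2 differences, HFD+C2 minus HFD+C1, ran from -0.39 for ND4 to 0.40 for ATP8. The 95% interval of the difference was -0.96 to 0.79 for COX1, -1.26 to 0.97 for CYTB, -1.17 to 1.11 for ND1 and -0.82 to 0.74 for ATP6. These intervals are wide, and the compounds are not shown to act alike.

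Without HFD+C2 replicate 1 the picture shifted upward for the mitochondrial genes: 12 of 13 were above 0, with a median of 0.30, and 5 had an unadjusted p under 0.05 (background 3.00% higher and 3.33% lower) but an edgeR adjusted p of 0.78 or more. ND1 was then at 0.41, ND2 at 0.42 and ND5 at 0.60. Over the 83 nuclear members the median difference was 0.14 with all libraries and -0.15 without that one. Ndufb6, an accessory subunit of complex I, was the 1 nuclear member with an unadjusted p under 0.05 in the fit of all 6 libraries. Leaving out HFD+C2 replicate 3 gave 13 such members, 11 higher and 2 lower (background 8.68%), and leaving out HFD+C2 replicate 1 gave 6, all lower. There were 4 without HFD+C2 replicate 2 (background 5.68%) and 0 without HFD+C1 replicate 1 (background 2.16%). Ndufb6 was at 26.6, 42.2 and 40.5 CPM in HFD+C2 and at 65.6, 52.0 and 47.8 CPM in HFD+C1, without overlap (log2 difference -0.60, 95% interval -1.07 to -0.12, edgeR adjusted p 0.841). Cox6c2 (0.90, interval -0.12 to 1.92) and Uqcr11 (0.77, interval -0.21 to 1.75) had the largest positive log2 differences among the genes picked by complex. Both rested on HFD+C2 replicate 1, where Cox6c2 was at 5.96 CPM against 2.35 and 2.01 CPM, and without it they were 0.26 and -0.05. Groups did not overlap for 10 nuclear members, all lower in HFD+C2 (background 5.96% lower and 6.01% higher), and for no mitochondrial gene.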

How the data were processed

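Total RNA from 12 mouse liver samples was sequenced. The authors deposited 3 tables of read counts per gene; although named as normalized, all values are whole numbers with unequal totals, so they were used as raw counts, and the HFD values are the same in each table. The submitters' processing notes name Trimmomatic 0.39, STAR 2.7, DESeq2 and mm10, without their roles; the annotation, strand setting and filters are not given in the sources used here. The labels call the replicates biological and say no more of their origin, so p-values measure the spread between these libraries.

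The 4 rows that name no gene (27.3% to 58.2% of reads) were left out. Each comparison kept genes averaging 10 or more counts across its 6 libraries and used edgeR 4.0.16 (R 4.3.3; TMM scaling, quasi-likelihood test, no covariates), with p-values adjusted over all tested genes and calls at an adjusted p under 0.05. The 4 comparisons share groups, the 3 HFD libraries among them, so their values are not independent. Intervals of a difference use the standard error and degrees of freedom of the same fit. DESeq2 1.42.0, other scalings, filters, a joint fit, a replicate block and leaving out each library were tried. The test was also run on counts simulated from the means, library sizes and dispersions of these data, and no result here rests on that run. With 3 counts as the floor, a library's floor was 0.0934 to 0.701 CPM; floors cover counting error only. Sequence copies were sought with BLAST+ 2.17.0 in GENCODE M21 transcripts.

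The text names all 13 mitochondrial genes, any nuclear member called by edgeR with all libraries of a comparison (there was none), the tested nuclear member with a mean of at least 50 counts that changed most in each direction in each complex, set isoforms and the synthase inhibitor. Ndufa7, Ndufa10, Cox5b, Ndufb4, Ndufa2, Coa8, Lrpprc, Tfam, Ppara and the nuclear copies were named after their values were seen. The members and lists were chosen with earlier results of these data known.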

Additional observations from a re-analysis of the deposited data

How the results depend on the processing

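For the diet, leaving out 1 library gave 0 to 11 mitochondrial calls and 0 to 10 nuclear calls, and DESeq2 called 11 nuclear members, the fit without a filter 14 and the fit of all 12 libraries 9. The same 3 fits called 9, 10 and 8 mitochondrial genes higher and 1 lower in each (backgrounds in either direction 16.6%, 12.7% and 17.4%). Of 9 alternative fits that left out no library, COX2 was called in 2 and ATP6 in 4. The log2 ratio of mitochondrial to nuclear reads differed by 0.81 on medians over members. For C1, mitochondrial calls were 4 with DESeq2 (77 of 13358 genes called in all), 7 without a filter (206 of 29858), 1 with the replicate block (36 of 13358) and 0 to 2 with 1 library left out (2 to 102 genes in all), and nuclear calls were 1 without a filter and 0 to 3 with 1 library left out. The fit of all 12 libraries called 0 of 13358 genes for C1. Its counts at an unadjusted p under 0.05 were 2 mitochondrial and 1 nuclear, against 12 and 18 in the fit of 6 libraries. For C2, calls without a filter were 2 mitochondrial and 1 nuclear, of 152 among 28606 genes. With 1 library left out, the log2 ratio differed by -1.18 to 0.10 between HFD+C2 and HFD and by -0.81 to 0.47 between the compounds. Between HFD+C1 and HFD it differed by -0.51 to -0.20. The cause of these shifts was not tested.

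Replicates that share a number in the labels did not deviate together: the correlations for the diet were -0.0321, 0.23 and -0.106, so the numbers were not taken as pairs. With the replicate block, 483 genes were called for the diet against 836, and in C1 the block called ATP6 at -0.78 (edgeR adjusted p 0.0391).

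Log2 changes near 0 turned sign in some fits. For the diet, Cox7a2 was 0.08 without a filter. For C2 against HFD, Cox7a2 was -0.08 with the block, Cox7a2l was 0.02 with upper-quartile scaling and 0.00 with a mean of 50 counts or all 12 libraries, and Atpif1 was -0.00 when scaled without mitochondrial genes, -0.01 without a filter and -0.06 with the block. For C2 against C1, ATP6 was 0.09 with its copy added, and with the block ND4L was -0.04 and Atpif1 -0.03.

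With 1 library left out, these ranges spanned or reached 0. For the diet they were ND4L 0.00 to 0.53, Cox4i1 -0.36 to 0.01, Cox7a2 -0.34 to 0.03, Ndufa4 -0.00 to 0.25 and Atpif1 -0.45 to 0.05. For C1 they were Ndufa4l2 -0.39 to 0.34 and Atpif1 -0.14 to 0.08. For C2 against HFD they were ND1 -0.74 to 0.10, Ndufa6 -0.28 to 0.65, Uqcrh -0.31 to 0.70, Uqcrc1 -0.04 to 0.02, Cox7b -0.27 to 0.95, Atp5l -0.37 to 0.87, Cox7a2 -0.55 to 0.32, Cox7a2l -0.13 to 0.08, Ndufa4 -0.41 to 0.57, Ndufa4l2 -0.52 to 0.21 and Atpif1 -0.39 to 0.22. For C2 against C1 they were ATP6 -0.31 to 0.31, ATP8 -0.02 to 0.83, COX1 -0.31 to 0.25, COX2 -0.33 to 0.30, COX3 0.00 to 0.30, CYTB -0.57 to 0.28, ND1 -0.43 to 0.41, ND2 -0.48 to 0.42, ND4 -0.82 to 0.11, ND4L -0.34 to 0.42, ND5 -0.11 to 0.60 and ND6 -0.65 to 0.10. The nuclear genes of that pair were Ndufa6 -0.09 to 0.85, Uqcr11 -0.05 to 1.10, Uqcrc1 -0.14 to 0.00, Atp5l -0.29 to 0.95, Cox6b1 -0.20 to 0.07, Cox7a2 -0.02 to 0.85, Ndufa4 -0.23 to 0.75, Ndufa4l2 -0.29 to 0.05 and Atpif1 -0.36 to 0.25. ATP8 had 0 to 16 counts in the NCD libraries, which limits the precision of its change.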
